A study of Mus musculus with 15 samples.

Results

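The 10 genes described here are Trp53, which encodes the tumour suppressor p53, and 9 genes that p53 is known to activate: Mdm2, Btg2, Ccng1, Plk2, Trp53inp1, Bbc3, Bax, Aen and Phlda3. They were chosen by symbol. Each symbol matched 1 row, so that all 10 were found among the 55416 gene identifiers of the series. RNA was sequenced from neural precursor cells of the hippocampus, derived from female mice aged 6 weeks and grown as adherent monolayers; the labels give no strain. The Atf4 line carried Atf4 coding sequence under the doxycycline-responsive TRE3G promoter, the Atf3 line carried Atf3 coding sequence in the same position, and the control line carried the cassette with no Atf3 or Atf4. All cassettes were inserted with piggyBac, a transposon that integrates at many sites, and all also held a TetON-3G transactivator and a puromycin resistance gene. All cultures were moved to medium without EGF and FGF, which starts differentiation, received doxycycline at 100 ng/ml at that moment, and were harvested after 10 h. There were 5 libraries per line, called Atf4 cells, Atf3 cells and control cells. Each construct is represented by 1 stable line, so an effect of the construct and a property of that line cannot be told apart. Whether the libraries of a line came from separate cultures is not stated in the labels, and a p-value here therefore reflects only the spread among these libraries, which may be technical.

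The protein p53 is a transcription factor that is held at a low level by Mdm2, a ubiquitin ligase that marks it for degradation. DNA damage and other stresses free p53 from Mdm2, and p53 then binds paired half-sites in its target genes and raises genes that stop the cell cycle, repair DNA, change metabolism or start cell death. Mdm2 is itself such a target, which closes a negative feedback loop. In the adult mouse brain p53 is known to restrain the proliferation and self-renewal of neural stem cells. Much of the control of p53 acts on the protein, which these data do not measure.

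Libraries held 53.7 to 69.6 M counts. The transgene check followed the labels for Atf3, whose mRNA averaged 1.40 ± 0.306 CPM (counts scaled to a common library total) in Atf4 cells, 1941 ± 119.5 CPM in Atf3 cells and 5.02 ± 4.10 CPM in control cells (SD, n = 5 each). Atf4 mRNA, from the endogenous gene and any transgene together, averaged 153 ± 21.7 CPM in Atf4 cells, 250.3 ± 16.5 CPM in Atf3 cells and 83.2 ± 6.75 CPM in control cells, so that it was highest in Atf3 cells. It was 1.84-fold higher in Atf4 cells than in control cells (edgeR adjusted p = 1.9e-08), with no overlap of libraries. All 8 precursor markers were above 1 CPM in each line, with sums of 3490 to 3580 CPM in Atf4 cells, 3800 to 3880 CPM in Atf3 cells and 3180 to 3450 CPM in control cells. Single markers differed in both directions from control cells. Fabp7 was 1.62-fold higher in Atf4 cells and 2.26-fold higher in Atf3 cells, and Vim was 1.18-fold lower in Atf4 cells and 1.39-fold lower in Atf3 cells. Hes1 was 2.11-fold lower in Atf4 cells and did not pass the test in Atf3 cells. The 6 microglia markers summed to at most 1.22 CPM in Atf4 cells, 1.51 CPM in Atf3 cells and 1.27 CPM in control cells. The 5 mural and fibroblast markers summed to at most 0.664 CPM in Atf4 cells, 0.812 CPM in Atf3 cells and 0.966 CPM in control cells. Markers of 4 other cell types had lower sums in the Atf lines than in control cells, with an overlap between Atf3 and control cells for oligodendrocyte markers. The 4 astrocyte markers, 3 of them above 1 CPM, summed to 97.1 to 134 CPM in Atf4 cells, 102 to 114 CPM in Atf3 cells and 223 to 261 CPM in control cells. The 5 endothelial markers, 2 of them above 1 CPM, summed to 18.4 to 21.5 CPM in Atf4 cells, 12.4 to 18.5 CPM in Atf3 cells and 44.8 to 49.1 CPM in control cells. Most of that sum was Kdr, while the defining markers Cdh5 and Cldn5 stayed at or below 0.252 CPM in each library, and Cldn5 had 0 counts in all Atf3 libraries. Kdr was 2.70-fold lower in Atf4 cells and 4.40-fold lower in Atf3 cells than in control cells. Tek, another marker of that list, went the other way, 1.83-fold higher in Atf4 cells and 2.68-fold higher in Atf3 cells. The 5 neuron markers, of which 2 in the Atf lines and 3 in control cells were above 1 CPM, summed to 1360 to 1510 CPM in Atf4 cells, 1340 to 1560 CPM in Atf3 cells and 1640 to 1820 CPM in control cells. Most of that sum was Map2, and the defining markers differed more: Tubb3 was 1.98-fold lower in Atf4 cells and 5.44-fold lower in Atf3 cells, and Dcx was 2.73-fold lower in Atf4 cells and 1.91-fold lower in Atf3 cells, than in control cells. The 6 oligodendrocyte markers, 3 of them above 1 CPM, summed to 1070 to 1240 CPM in Atf4 cells, 1090 to 1390 CPM in Atf3 cells and 1340 to 1580 CPM in control cells. Mitochondrially encoded genes took 3.28 to 3.57% of counts in Atf4 cells, 3.23 to 3.95% in Atf3 cells and 4.00 to 4.16% in control cells. The part of these differences in the results on p53 genes was not tested.

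Promoter sequences were searched because p53 acts through half-sites near its target genes and ATF proteins act through the cyclic AMP response element (CRE, TGACGTCA), the AP-1 site (TGACTCA) and the CHOP-ATF composite (TGATGNAA). RefSeq promoters on GRCm38.p6, from 250 bases before to 50 bases after an annotated start, were searched on both strands for these letters, for the p53 half-site and for the p53 full site, which is a pair of half-sites with a gap of at most 13 bases. Of the 10 genes 9 had 12 promoters in the table. A p53 half-site lay in 6 of the 12 promoters, against 8.36% of all 32851 promoters, and these 6 belong to Trp53, Mdm2, Ccng1, Bax and Aen, whose overlapping promoters of 2 starts hold the same match. No promoter of the 12 held a full site, against 24 of 32851 promoters, or 0.0731%. No mismatch was allowed, and a pattern this rare can hardly be expected in 12 promoters, so its absence says little. The bases just before the Ccng1 half-site (agacctgccc, in the stretch printed below) miss the half-site pattern at a single base, so this search did not count that pair. A CRE lay in 2 of the 12, those of Btg2 and Plk2, against 1.79% of all promoters. The AP-1 site (5.20% of all promoters) and the CHOP-ATF composite (3.97%) were found in none of the 12. A match describes the letters and shows no binding, and known p53 sites of some of these genes, such as the intronic sites of Mdm2, lie outside such windows. The stretches around the matches are printed 5′ to 3′ on the gene's strand, with the p53 half-site or the CRE in capitals, because they separate the genes by the motif near their start.
Trp53 (chr11:69580244-69580333, plus strand, half-site from -75 to -66 relative to the start): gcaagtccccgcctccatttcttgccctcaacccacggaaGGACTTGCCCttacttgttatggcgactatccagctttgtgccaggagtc
Mdm2 (chr10:117710895-117710984, minus strand, half-site from -186 to -177): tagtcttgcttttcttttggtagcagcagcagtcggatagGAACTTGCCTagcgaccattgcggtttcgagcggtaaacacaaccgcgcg
Ccng1 (chr11:40755422-40755511, minus strand, half-site from -185 to -176): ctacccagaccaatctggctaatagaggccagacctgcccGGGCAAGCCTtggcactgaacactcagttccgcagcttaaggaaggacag
Bax (chr7:45467050-45467139, minus strand, half-site from -201 to -192): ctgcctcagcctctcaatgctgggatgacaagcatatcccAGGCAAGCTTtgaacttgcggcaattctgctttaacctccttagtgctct
Aen (chr7:78895897-78895986, plus strand, half-site from -121 to -112 of start 2): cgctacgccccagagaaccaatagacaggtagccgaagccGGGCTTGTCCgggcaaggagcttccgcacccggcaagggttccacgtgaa
Btg2 (chr1:134079274-134079361, minus strand, CRE from -166 to -159): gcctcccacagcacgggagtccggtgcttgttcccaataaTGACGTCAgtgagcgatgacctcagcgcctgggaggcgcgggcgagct
Plk2 (chr13:110394942-110395029, plus strand, CRE from -62 to -55): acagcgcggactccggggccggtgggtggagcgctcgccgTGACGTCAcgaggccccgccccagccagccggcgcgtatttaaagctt

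**Figure D1:**
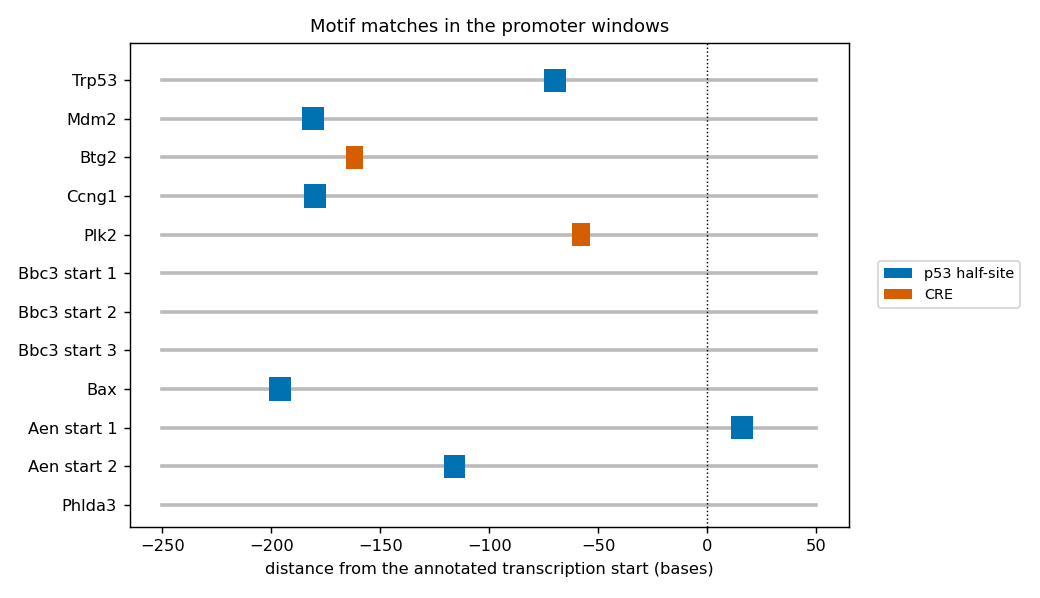
Matches in 12 promoters of 9 genes, drawn by distance in bases from the annotated start (dotted line); each grey line is a promoter of 300 bases, blue blocks are p53 half-sites and orange blocks are CREs. Half-sites lie in 6 promoters and CREs in 2, and the promoters of Bbc3 and Phlda3 hold neither.

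Against control cells, 6 of the 10 genes were higher in Atf4 cells, 2 were lower and 2 did not pass the test (edgeR quasi-likelihood test, adjusted p under 0.05 over 18244 genes). In Atf3 cells 7 were higher and 3 were lower than in control cells. Higher in Atf4 cells were Trp53, Mdm2, Ccng1, Bax, Aen and Phlda3, by 1.18-fold to 1.81-fold. Higher in Atf3 cells were Trp53, Mdm2, Ccng1, Plk2, Bax, Aen and Phlda3, by 1.33-fold to 2.39-fold. Btg2 and Trp53inp1 were lower in Atf4 cells, and Btg2, Trp53inp1 and Bbc3 were lower in Atf3 cells, than in control cells. These 2 comparisons share the control libraries. Read against all genes tested, 31.9% were called higher and 29.7% lower in Atf4 cells than in control cells, and 36.8% were called higher and 36.3% lower in Atf3 cells. Among the 9996 genes with a mean of at least 10 CPM, which all 10 genes exceed, the shares were 43.9% higher and 29.5% lower in Atf4 cells and 51.7% higher and 31.5% lower in Atf3 cells, so that calls were common among all genes of like level. The median log2 fold change of the 10 genes was 0.26 for Atf4 cells and 0.58 for Atf3 cells against control cells, beside -0.001 and -0.017 over all genes tested. Among genes of at least 10 CPM the median was 0.06 for Atf4 cells and 0.12 for Atf3 cells. The 5 libraries of the Atf line and those of control cells did not overlap for 8 of the 10 genes in Atf4 cells, against 47.9% of all genes, and for 9 of the 10 in Atf3 cells, against 60.7%. This share was not counted among genes of at least 10 CPM, so no background of like level stands beside these counts.

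The direct comparison of Atf4 cells with Atf3 cells gave 1 gene higher, 6 lower and 3 not called, with a median log2 fold change of -0.21 beside 0.007 over all genes tested. Over all genes 19.7% were called higher and 23.9% lower in Atf4 cells than in Atf3 cells. Among the genes of at least 10 CPM the shares were 17.7% higher and 36.2% lower, with a median of -0.05. The libraries of these lines did not overlap for 5 of the 10 genes, against 25.8% of all genes, again with no share counted at 10 CPM or more. Trp53, Mdm2, Plk2, Bax, Aen and Phlda3 were lower in Atf4 cells, and Trp53inp1 was higher. The count of 1 higher gene was 0 without Atf3 replicate 1, Atf3 replicate 3 or Atf4 replicate 1, was 2 without Atf3 replicate 4 and was 3 without Atf4 replicate 5. In the cases with 0, Trp53inp1 stood at an edgeR adjusted p of 0.055 to 0.06. In these bulk samples a change in the share of cells that express a gene and a change in the RNA of that gene per cell cannot be told apart.

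**Figure D2:**
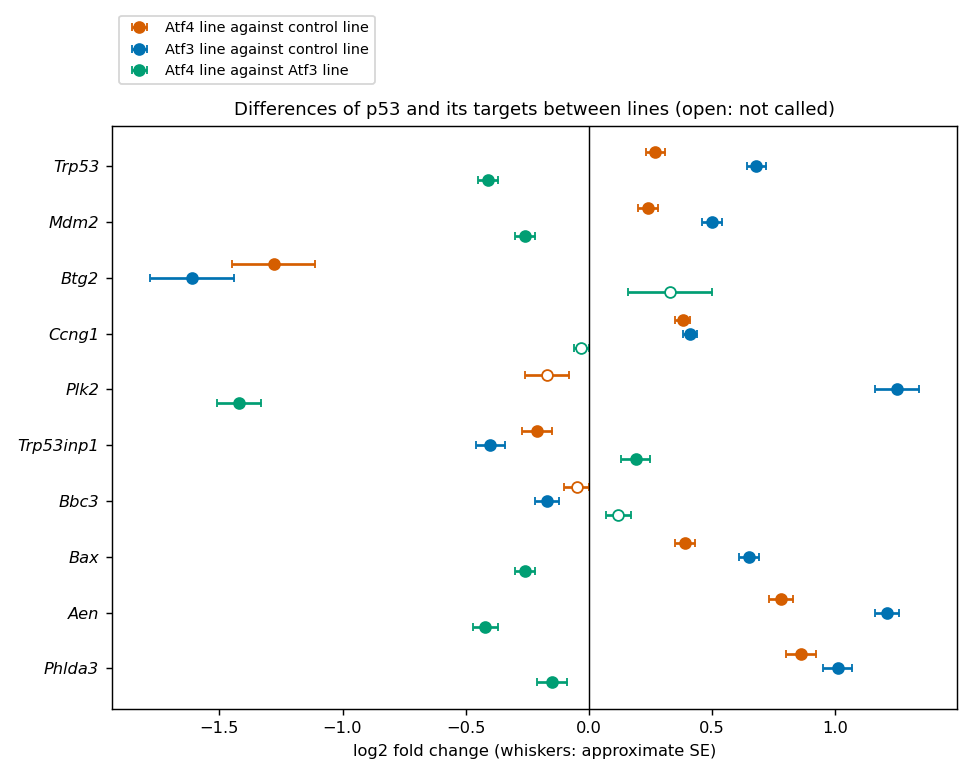
Log2 fold change of each gene in 3 comparisons, with whiskers for the approximate SE; filled points passed an adjusted p under 0.05 and open points did not. Aen and Phlda3 lie between 0.78 and 1.21 in both comparisons with control cells, Btg2 lies at -1.28 and -1.61, and Plk2 is at 1.25 in Atf3 cells against control cells and at -0.17 in Atf4 cells.

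Trp53 (ENSMUSG00000059552, chr11:69580359-69591873 on GRCm38, plus strand; all 10 genes are protein-coding) had 68.4, 70.6, 72.3, 73.0 and 75.2 CPM in the 5 libraries of Atf4 cells. It had 98.4, 87.8, 98.7, 99.6 and 92.3 CPM in Atf3 cells and 61.2, 59.6, 56.8, 59.5 and 60.05 CPM in control cells. The lines did not overlap, with Atf3 cells highest and control cells lowest. The log2 fold change was 0.27 ± 0.04 SE in Atf4 cells against control cells, or 1.21-fold (edgeR adjusted p = 6.8e-06). In Atf3 cells against control cells it was 0.68 ± 0.04 SE, or 1.60-fold (edgeR adjusted p = 1.8e-11). Trp53 was 1.33-fold lower in Atf4 cells than in Atf3 cells (log2 fold change -0.41 ± 0.04 SE, edgeR adjusted p = 4.7e-07).

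Mdm2 (ENSMUSG00000020184, chr10:117688875-117710758, minus strand), the ligase and target that limits p53, had 84.2, 91.9, 89.3, 92.7 and 95.9 CPM in Atf4 cells. It had 112, 105, 112, 110 and 106 CPM in Atf3 cells and 70.6, 78.1, 76.2, 80.01 and 79.4 CPM in control cells. Its order of lines was that of Trp53, again with no overlap. Mdm2 was 1.18-fold higher in Atf4 cells (log2 fold change 0.24 ± 0.04 SE, edgeR adjusted p = 4.4e-05) and 1.42-fold higher in Atf3 cells (0.50 ± 0.04 SE, edgeR adjusted p = 1.9e-09) than in control cells. Between Atf4 cells and Atf3 cells the log2 fold change was -0.26 ± 0.04 SE (edgeR adjusted p = 4.8e-05).

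**Figure D3:**
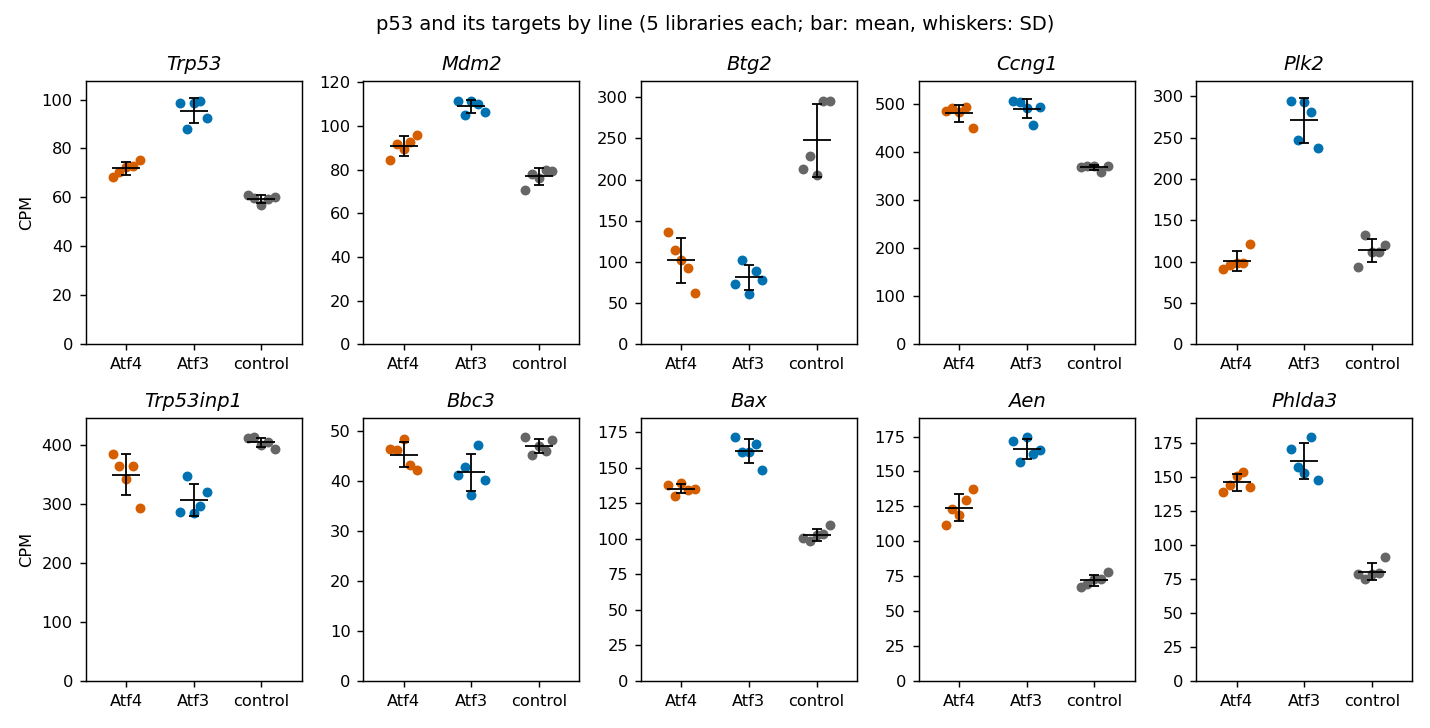
CPM of the 10 genes in each library (points), with mean (bar) and SD (whiskers) of 5 libraries, for the Atf4, Atf3 and control lines; each axis starts at 0. Trp53, Mdm2, Bax and Aen form 3 separate groups with Atf3 cells highest, Plk2 stands high in Atf3 cells alone at 271 ± 26.9 CPM, and Btg2 stands high in control cells at 247 ± 44.6 CPM.

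Of the targets that act on the cell cycle and growth, cyclin G1 rose in each Atf line, Plk2 rose in Atf3 cells and Btg2 fell in each. Btg2 (ENSMUSG00000020423, chr1:134075170-134079120, minus strand) encodes an antiproliferative protein that brings the CCR4-NOT deadenylase to mRNAs, and in the mouse brain it is known as a marker of precursors about to make neurons. It had 137, 115, 102, 92.6 and 62.6 CPM in Atf4 cells, 73.3, 103, 61.3, 89.35 and 78.5 CPM in Atf3 cells, and 213, 228, 205, 296 and 295 CPM in control cells. Every library of the Atf lines was below every control library. Btg2 was 2.43-fold lower in Atf4 cells (log2 fold change -1.28 ± 0.17 SE, edgeR adjusted p = 2.7e-06) and 3.06-fold lower in Atf3 cells (-1.61 ± 0.17 SE, edgeR adjusted p = 9.1e-08) than in control cells. The Atf4 and Atf3 lines overlapped, and their difference of 0.33 ± 0.17 SE did not pass the test (edgeR adjusted p = 0.12). Without Atf4 replicate 5, which was lowest, the difference was 0.47 and passed it (edgeR adjusted p = 0.01; 0.01 to 0.34 over all alternatives).

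Plk2 (ENSMUSG00000021701, chr13:110395046-110400844, plus strand), a polo-like kinase induced by serum and known in neurons for weakening active synapses, had 91.5, 95.6, 98.2, 97.9 and 122 CPM in Atf4 cells. It had 295, 248, 294, 281 and 237 CPM in Atf3 cells and 93.5, 132, 111, 111 and 119.9 CPM in control cells. Atf3 cells stood above all other libraries, and the Atf4 and control lines overlapped. Plk2 was 2.39-fold higher in Atf3 cells than in control cells (log2 fold change 1.25 ± 0.09 SE, edgeR adjusted p = 3.1e-10) and 2.68-fold lower in Atf4 cells than in Atf3 cells (-1.42 ± 0.09 SE, edgeR adjusted p = 5.2e-09). In Atf4 cells against control cells its log2 fold change of -0.17 ± 0.09 SE did not pass the test (edgeR adjusted p = 0.1). It passed without control replicate 1 (-0.24, edgeR adjusted p = 0.018) and without Atf4 replicate 5 (-0.26, edgeR adjusted p = 0.008; 0.008 to 0.24 over all alternatives). Btg2 and Plk2, which carry the CRE-holding promoters printed above, thus differed in opposite directions in Atf3 cells.

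Ccng1 (ENSMUSG00000020326, chr11:40748552-40755311, minus strand) encodes cyclin G1, which binds protein phosphatase PP2A and Mdm2. It ranged from 451 to 495.5 CPM in Atf4 cells (482 ± 17.9, SD, n = 5), from 458 to 508 CPM in Atf3 cells (491.5 ± 20.1) and from 359.7 to 372 CPM in control cells (369 ± 5.30). The Atf lines overlapped each other and lay above all control libraries. Ccng1 was 1.31-fold higher in Atf4 cells (log2 fold change 0.38 ± 0.03 SE, edgeR adjusted p = 1.4e-08) and 1.33-fold higher in Atf3 cells (0.41 ± 0.03 SE, edgeR adjusted p = 2.4e-09) than in control cells. Between Atf4 cells and Atf3 cells the difference of -0.03 ± 0.03 SE did not pass the test (edgeR adjusted p = 0.52), and its sign turned with scaling to plain library totals.

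Trp53inp1 (ENSMUSG00000028211, chr4:11156431-11174379, plus strand) encodes a stress-induced partner of p53 that also acts in autophagy. It ranged from 294 to 385 CPM in Atf4 cells (350.2 ± 34.5, SD, n = 5), from 285 to 348 CPM in Atf3 cells (307 ± 26.6) and from 394 to 414 CPM in control cells (405 ± 8.08). Each Atf line lay below all control libraries, by a log2 fold change of -0.21 ± 0.06 SE in Atf4 cells (edgeR adjusted p = 0.0066) and -0.40 ± 0.06 SE in Atf3 cells (edgeR adjusted p = 1.2e-05). Atf4 cells were higher than Atf3 cells by 0.19 ± 0.06 SE (edgeR adjusted p = 0.02), with overlapping libraries. That call ended without Atf3 replicate 1, Atf3 replicate 3 or Atf4 replicate 1, at log2 fold changes of 0.16, 0.16 and 0.15 (edgeR adjusted p = 0.059, 0.06 and 0.055). Across alternatives the adjusted p of that call ran between 0.00046 and 0.06 in edgeR, DESeq2 and limma.

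Among genes that act in cell death, Bax and Aen rose in each Atf line and Bbc3 did not. Bax (ENSMUSG00000003873, chr7:45461697-45466898, minus strand), which opens pores in the outer mitochondrial membrane, had 138, 130.3, 139, 134 and 135 CPM in Atf4 cells. It had 171.5, 160.9, 161, 167 and 148 CPM in Atf3 cells and 100.3, 98.5, 103, 103 and 109.6 CPM in control cells. The lines did not overlap. Bax was 1.31-fold higher in Atf4 cells (log2 fold change 0.39 ± 0.04 SE, edgeR adjusted p = 7.2e-08) and 1.57-fold higher in Atf3 cells (0.65 ± 0.04 SE, edgeR adjusted p = 3.3e-11) than in control cells. It was lower in Atf4 cells than in Atf3 cells (-0.26 ± 0.04 SE, edgeR adjusted p = 4.1e-05). Gm45808 on the same strand shares 192 bases, 12.2% of the exon bases of Bax, so reads there could be counted to either gene or to neither.

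Aen (ENSMUSG00000030609, chr7:78895854-78911209, plus strand), a nuclease known to enhance apoptosis, had 112, 123, 119, 129 and 137 CPM in Atf4 cells. It had 172, 156.5, 174.5, 162.5 and 165.5 CPM in Atf3 cells and 67.0, 69.6, 73.2, 72.8 and 77.65 CPM in control cells. All 3 lines stood apart. Aen was 1.72-fold higher in Atf4 cells (log2 fold change 0.78 ± 0.05 SE, edgeR adjusted p = 3.1e-10) and 2.31-fold higher in Atf3 cells (1.21 ± 0.05 SE, edgeR adjusted p = 4.7e-13) than in control cells. It was 1.34-fold lower in Atf4 cells than in Atf3 cells (-0.42 ± 0.05 SE, edgeR adjusted p = 4.5e-06).

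Bbc3 (ENSMUSG00000002083, chr7:16308393-16318205, plus strand) encodes PUMA, which binds BCL-2 proteins through a BH3 helix and so frees Bax. It ranged from 42.1 to 48.3 CPM in Atf4 cells (45.2 ± 2.51, SD, n = 5), from 37.0 to 47.2 CPM in Atf3 cells (41.7 ± 3.72) and from 45.05 to 48.7 CPM in control cells (46.9 ± 1.49). The lines overlapped. In Atf3 cells Bbc3 fell by 0.17 ± 0.05 SE on the log2 scale against control cells (edgeR adjusted p = 0.008), and in Atf4 cells the log2 fold change of -0.05 ± 0.05 SE did not pass the test (edgeR adjusted p = 0.39). The difference between the Atf4 and Atf3 lines, 0.12 ± 0.05 SE, did not pass it either (edgeR adjusted p = 0.088). It passed without Atf3 replicate 4 (0.16, edgeR adjusted p = 0.012) and without Atf4 replicate 5 (0.15, edgeR adjusted p = 0.038; 0.0035 to 0.26 over all alternatives).

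Phlda3 (ENSMUSG00000041801, chr1:135766119-135769136, plus strand) encodes a small lipid-binding protein that keeps the survival kinase Akt from the membrane. It had 139, 144, 151, 154 and 143 CPM in Atf4 cells, 171, 157, 153, 179 and 148 CPM in Atf3 cells, and 78.55, 74.9, 78.55, 79.5 and 91.1 CPM in control cells. All libraries of the Atf lines were above all control libraries. Phlda3 was 1.81-fold higher in Atf4 cells (log2 fold change 0.86 ± 0.06 SE, edgeR adjusted p = 2.7e-10) and 2.01-fold higher in Atf3 cells (1.01 ± 0.06 SE, edgeR adjusted p = 1.3e-11) than in control cells. Atf4 cells were lower than Atf3 cells by a log2 fold change of -0.15 ± 0.06 SE (edgeR adjusted p = 0.039), with overlapping libraries. That call was lost in 10 of 18 alternatives, which had adjusted p-values of 0.017 to 0.52, and among them in the removal of Atf3 replicate 1 or 4 or of any library of Atf4 cells but replicate 4.

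Levels of different genes were compared per kilobase of exon. In control cells Ccng1 was highest at 105 ± 1.51 CPM per kb, followed by Btg2 at 90.2 ± 16.3 CPM per kb, and their libraries overlapped. Bax at 65.3 and Trp53inp1 at 62.6 CPM per kb also overlapped, above Phlda3 at 51.7 CPM per kb. Plk2 at 25.3 and Bbc3 at 22.1 CPM per kb overlapped, as did Mdm2 at 15.1 and Trp53 at 14.7 CPM per kb, and Aen was lowest at 12.4 CPM per kb. The order differed in the Atf lines. In Atf4 cells Ccng1 (137), Phlda3 (93.7) and Bax (85.8 CPM per kb) led and stood apart from each other, while Btg2 at 37.1 CPM per kb overlapped its neighbours Trp53inp1 at 54.1 and Plk2 at 22.5. In the same line Plk2, Aen at 21.4 and Bbc3 at 21.3 CPM per kb overlapped, and Mdm2 at 17.9 and Trp53 at 17.8 CPM per kb were lowest and overlapped too. In Atf3 cells Ccng1 at 140.0 CPM per kb led, Phlda3 at 104 and Bax at 103 CPM per kb overlapped, and Plk2 at 60.3 CPM per kb overlapped Trp53inp1 at 47.5. Btg2 at 29.5 and Aen at 28.7 CPM per kb overlapped there, and Trp53 at 23.6, Mdm2 at 21.4 and Bbc3 at 19.6 CPM per kb closed the order with overlap between neighbours.

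Within lines, Btg2 varied most of the 10 genes, with coefficients of variation of 26.9% in Atf4 cells, 19.4% in Atf3 cells and 18.0% in control cells. Control replicates 4 and 5 had the highest Btg2 and also the highest Fos, an immediate early gene of growth factor signalling, at 239 and 256 CPM against 20.7, 108 and 53.9 CPM in control replicates 1 to 3. Fos ranged from 7.16 to 12.8 CPM in Atf4 cells and from 31.4 to 67.8 CPM in Atf3 cells. Egr1, another immediate early gene, ranged from 135 to 276 CPM in Atf4 cells, from 765 to 1166 CPM in Atf3 cells and from 275.5 to 1403 CPM in control cells. There it did not follow Btg2, since control replicate 2 had 1344 CPM and control replicate 4 had 925 CPM. Of the 8 immediate early genes listed, 7 were lower in Atf4 cells and 5 in Atf3 cells than in control cells, and 0 were higher. Over all genes tested 29.7% were lower in Atf4 cells and 36.3% in Atf3 cells. Egr1 was among those not called in Atf3 cells. Without control replicates 4 and 5, a choice made after seeing the data, the log2 fold change of Btg2 was -1.09 in Atf4 cells (edgeR adjusted p = 7.5e-05) and -1.42 in Atf3 cells (edgeR adjusted p = 2.8e-06) against control cells. These p-values are the highest over all alternatives for those results. The counts of the 10 genes were then still 6 higher and 2 lower in Atf4 cells and 7 higher and 3 lower in Atf3 cells. The part of growth factor signalling in the values of Btg2 and Plk2 was not tested.

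In Atf4 cells the mRNA of Atf4 was 128, 147, 149.6, 153.5 and 188 CPM in replicates 1 to 5. Replicate 5, with the most Atf4 mRNA, was the library of that line with the highest Trp53, Mdm2, Plk2 and Aen and with the lowest Btg2, Ccng1, Trp53inp1 and Bbc3. It was the Atf4 library nearest the mean of Atf3 cells for 6 of the 10 genes. Replicate 1, with the least Atf4 mRNA, was lowest for 5 of the 10 genes and highest for 2. Replicate 5 also differed widely over all genes, with chi-square over degrees of freedom of 53.4, 33 and 26.3 against replicates 1 to 3. The remaining pairs of Atf4 libraries had 6.59 to 24.5. The share of all genes with an extreme in replicate 5 was not counted, so these counts are no result about the 10 genes. A relation to the level of Atf4 mRNA was not tested.

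**Figure D4:**
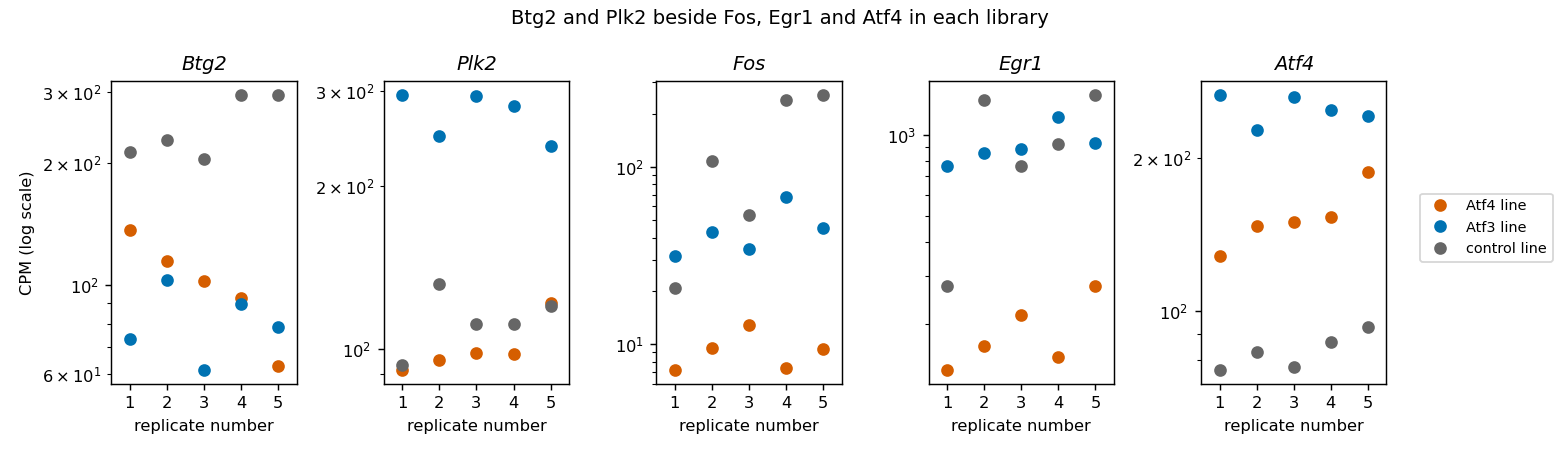
CPM on log axes of Btg2, Plk2, Fos, Egr1 and Atf4 in replicates 1 to 5 of each line; replicate numbers do not pair libraries across lines. Control replicates 4 and 5 have the highest Btg2 and Fos (239 and 256 CPM), and Atf4 replicate 5 has the most Atf4 mRNA (188 CPM) and the least Btg2 (62.6 CPM) of its line.

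Other genes of the pathway were taken from lists written from general knowledge of p53, with 64 genes of which 61 could be tested. The lists were chosen with earlier results of these data known, so their shares are a description and no independent support. Of these 61 genes 34 were higher and 11 lower in Atf4 cells than in control cells (median log2 fold change 0.20), and 37 were higher and 12 lower in Atf3 cells (median 0.25). Of all genes of at least 10 CPM, 43.9% were higher and 29.5% lower in Atf4 cells, and 51.7% were higher and 31.5% lower in Atf3 cells, with median log2 fold changes of 0.06 in Atf4 cells and 0.12 in Atf3 cells. Over all genes tested 31.9% were higher in Atf4 cells and 36.8% in Atf3 cells. Some of the listed genes lay under 10 CPM, where 17.3% of genes were higher in Atf4 cells and 18.8% in Atf3 cells. The higher share of the pathway genes was thus above each of these shares, and nearest to that of genes of at least 10 CPM. No background matched to the levels of the list was drawn, and the lists that follow are to be read against the same shares. In Atf4 cells against Atf3 cells 10 were higher and 18 lower (median -0.02). For that comparison 17.7% of genes of at least 10 CPM were higher and 36.2% lower, and 19.7% and 23.9% of all genes. The counts lie near these shares and are no result about the pathway. Leaving out control replicates 4 and 5 gave 31 higher and 10 lower in Atf4 cells and 34 higher and 12 lower in Atf3 cells. With plain library totals 19 were lower in Atf3 cells than in control cells, and 20 were higher and 9 lower in Atf4 cells than in Atf3 cells. Without Atf4 replicate 4 that comparison of the Atf lines gave 6 higher.

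The 8 further cell cycle targets had 6 higher and 1 lower in each Atf line, with medians of 0.72 in Atf4 cells and 0.69 in Atf3 cells. Cdkn1a, which encodes p21, the inhibitor of cyclin-dependent kinases through which p53 stops the cell cycle, had 671 ± 31.6 CPM in Atf4 cells, 673 ± 13.2 CPM in Atf3 cells and 340.4 ± 23.4 CPM in control cells (SD, n = 5 each). Its log2 fold change was 0.98 ± 0.04 SE in Atf4 cells (edgeR adjusted p = 1.9e-12) and 0.98 ± 0.04 SE in Atf3 cells (edgeR adjusted p = 6.2e-13), and 0.00 ± 0.04 SE between the Atf4 and Atf3 lines (edgeR adjusted p = 0.95). An opposite-strand gene shares 7.68% of its exon bases, and the library kit does not mark strand. E2f7, a repressor of cell cycle genes, had 23.8 ± 2.26 CPM in Atf4 cells, 20.5 ± 1.46 CPM in Atf3 cells and 7.30 ± 1.07 CPM in control cells, or log2 fold changes of 1.70 ± 0.09 SE in Atf4 cells and 1.49 ± 0.09 SE in Atf3 cells. Rprm, which acts in the arrest before mitosis, had 39.9 ± 1.24 CPM in Atf4 cells, 43.1 ± 3.40 CPM in Atf3 cells and 17.9 ± 1.10 CPM in control cells. Gadd45a, a stress sensor of growth arrest, was the lower gene, with log2 fold changes of -0.38 ± 0.06 SE in Atf4 cells and -0.27 ± 0.06 SE in Atf3 cells; it is uncertain, since an opposite-strand gene shares 19.1% of its exon bases.

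Of the 10 further cell death targets tested, 9 were higher in Atf4 cells (median 0.32), and 9 were higher and 1 was lower in Atf3 cells (median 0.41). Pidd1, the scaffold of a complex that activates caspase-2, had 37.1 ± 3.83 CPM in Atf4 cells, 44.3 ± 2.22 CPM in Atf3 cells and 13.5 ± 0.669 CPM in control cells. Pmaip1, which encodes the BH3 protein NOXA, had 18.55 ± 2.50 CPM in Atf4 cells, 26.3 ± 1.05 CPM in Atf3 cells and 8.57 ± 0.914 CPM in control cells. The log2 fold change of Pidd1 was 1.46 ± 0.06 SE in Atf4 cells and 1.71 ± 0.06 SE in Atf3 cells, and that of Pmaip1 was 1.11 ± 0.09 SE in Atf4 cells and 1.62 ± 0.09 SE in Atf3 cells. Apaf1, the core of the apoptosome, was the gene that fell in Atf3 cells (-0.12 ± 0.04 SE, edgeR adjusted p = 0.0074).

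Of 6 DNA repair targets 1 was higher and 2 were lower in each Atf line than in control cells, too few for a reading against the shares over all genes. Polh, a polymerase that copies past damaged bases, had log2 fold changes of 0.67 ± 0.05 SE in Atf4 cells and 0.74 ± 0.05 SE in Atf3 cells, while Rrm2b, the p53-controlled subunit of ribonucleotide reductase, had -0.43 ± 0.04 SE in Atf4 cells and -0.53 ± 0.04 SE in Atf3 cells. Of 10 metabolic targets tested 6 were higher and 2 lower in Atf4 cells and 5 were higher and 3 lower in Atf3 cells. Tigar, a phosphatase that lowers glycolysis, had 0.45 ± 0.08 SE in Atf4 cells and 0.90 ± 0.08 SE in Atf3 cells, and Sesn1, a sestrin that restrains mTORC1, had -0.35 ± 0.08 SE in Atf4 cells and -0.60 ± 0.08 SE in Atf3 cells. The remaining 11 targets tested had 9 higher and 1 lower in Atf4 cells and 10 higher and 1 lower in Atf3 cells. Among them Gdf15, a stress cytokine that ATF proteins are also known to activate, had 19.6 ± 5.94 CPM in Atf4 cells, 40.7 ± 5.86 CPM in Atf3 cells and 3.61 ± 0.718 CPM in control cells, or log2 fold changes of 2.43 ± 0.18 SE in Atf4 cells and 3.49 ± 0.18 SE in Atf3 cells. Abhd4, a lipase, was the lower gene of that group (-0.20 ± 0.04 SE in Atf4 cells and -0.16 ± 0.04 SE in Atf3 cells).

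The 16 regulators of p53 had 3 higher and 5 lower in Atf4 cells and 6 higher and 4 lower in Atf3 cells. Chek1, the checkpoint kinase of stalled replication, had 18.5 ± 3.18 CPM in Atf4 cells, 21.3 ± 1.37 CPM in Atf3 cells and 4.23 ± 0.378 CPM in control cells, or log2 fold changes of 2.12 ± 0.10 SE in Atf4 cells and 2.33 ± 0.10 SE in Atf3 cells. Chek2, the kinase that answers broken DNA, had log2 fold changes of 0.58 ± 0.05 SE in Atf4 cells and 0.60 ± 0.05 SE in Atf3 cells. The acetyltransferase genes Ep300 and Crebbp, whose products act with p53 as coactivators, were lower (-0.52 ± 0.08 SE and -0.42 ± 0.08 SE in Atf4 cells, -0.78 ± 0.08 SE and -0.59 ± 0.08 SE in Atf3 cells).

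A further 10 genes are known to be lowered when p53 raises p21 and the DREAM repressor complex forms on their promoters. Of these, 9 were higher in Atf4 cells than in control cells (median log2 fold change 0.64), and 8 were higher and 1 lower in Atf3 cells (median 0.56). Mybl2, a transcription factor of S phase, had 38.4 ± 5.55 CPM in Atf4 cells, 40.4 ± 2.31 CPM in Atf3 cells and 7.02 ± 0.794 CPM in control cells, or log2 fold changes of 2.45 ± 0.09 SE in Atf4 cells and 2.52 ± 0.09 SE in Atf3 cells. Foxm1, a transcription factor of mitotic genes, had log2 fold changes of 0.88 ± 0.06 SE in Atf4 cells and 0.87 ± 0.06 SE in Atf3 cells, while Ccnb2, a mitotic cyclin, had -0.02 ± 0.06 SE in Atf4 cells and -0.29 ± 0.06 SE in Atf3 cells. Cdkn1a and most genes of this list were both higher in each Atf line than in control cells.

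**Figure D5:**
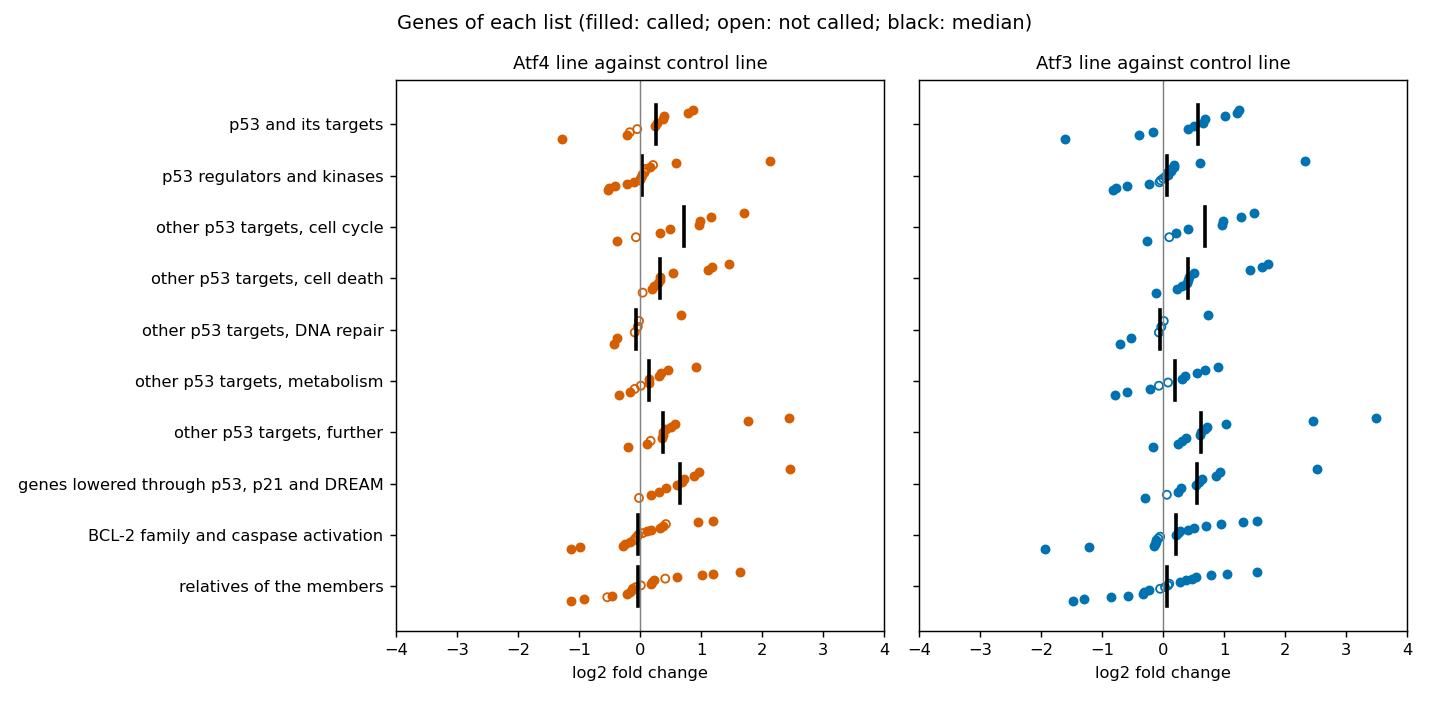
Log2 fold change against control cells of the tested genes of each list, for Atf4 cells (left) and Atf3 cells (right); filled points passed an adjusted p under 0.05, black bars are medians, and height within a row only spreads the points. The medians of the further cell cycle targets lie at 0.72 in Atf4 cells and 0.69 in Atf3 cells, those of the genes lowered through p53, p21 and DREAM at 0.64 in Atf4 cells and 0.56 in Atf3 cells, and those of the DNA repair targets close to 0.

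Of the 17 genes tested of the BCL-2 family and of caspase activation, with which Bax and Bbc3 act, 6 were higher and 5 lower in Atf4 cells than in control cells, and 9 were higher and 6 lower in Atf3 cells. In Atf4 cells against Atf3 cells 2 were higher and 8 lower. Over all genes tested 31.9% were higher and 29.7% lower in Atf4 cells than in control cells, and 36.8% and 36.3% in Atf3 cells. Among genes of at least 10 CPM the shares were 43.9% and 29.5% in Atf4 cells and 51.7% and 31.5% in Atf3 cells. For Atf4 cells against Atf3 cells they were 19.7% higher and 23.9% lower over all genes, and 17.7% and 36.2% at 10 CPM or more. With 17 genes, the counts say little about the list as a whole. Bok, a relative of Bax, had 31.8 ± 5.20 CPM in Atf4 cells, 40.4 ± 3.80 CPM in Atf3 cells and 13.9 ± 1.01 CPM in control cells, and Cycs, cytochrome c, had log2 fold changes of 0.95 ± 0.06 SE in Atf4 cells and 1.31 ± 0.06 SE in Atf3 cells. The BH3 genes Bcl2l11 and Bmf were lower in each Atf line than in control cells. Bcl2l11, which encodes BIM, had 40.8 ± 8.55 CPM in Atf4 cells, 34.6 ± 5.12 CPM in Atf3 cells and 80.3 ± 6.87 CPM in control cells, or log2 fold changes of -0.98 ± 0.12 SE in Atf4 cells and -1.21 ± 0.12 SE in Atf3 cells. Bmf had 18.4 ± 6.07 CPM in Atf4 cells, 10.6 ± 3.19 CPM in Atf3 cells and 40.5 ± 1.47 CPM in control cells, or log2 fold changes of -1.13 ± 0.19 SE in Atf4 cells and -1.94 ± 0.20 SE in Atf3 cells. The antiapoptotic gene Mcl1 had 136 ± 10.3 CPM in Atf4 cells, 217 ± 14.6 CPM in Atf3 cells and 165 ± 15.1 CPM in control cells, so that it was lower in Atf4 cells (log2 fold change -0.28 ± 0.06 SE, edgeR adjusted p = 0.00086) and higher in Atf3 cells (0.40 ± 0.06 SE, edgeR adjusted p = 1.5e-05). Bcl2 had log2 fold changes of 0.37 ± 0.10 SE in Atf4 cells and 0.70 ± 0.10 SE in Atf3 cells against control cells.

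Of the 18 relatives of the 10 genes that could be tested 7 were higher and 6 lower in Atf4 cells than in control cells, and 7 were higher and 7 lower in Atf3 cells. These counts lie near the shares over all genes, 31.9% higher and 29.7% lower in Atf4 cells and 36.8% higher and 36.3% lower in Atf3 cells, and are no result about the relatives as a group. Ccng2, the relative of Ccng1, had 52.0 ± 9.98 CPM in Atf4 cells, 35.4 ± 4.94 CPM in Atf3 cells and 98.7 ± 3.45 CPM in control cells, a direction opposite to that of Ccng1 (log2 fold change -0.92 ± 0.11 SE in Atf4 cells and -1.48 ± 0.11 SE in Atf3 cells). Phlda1, the relative of Phlda3, had 16.0 ± 1.53 CPM in Atf4 cells, 14.3 ± 1.32 CPM in Atf3 cells and 34.95 ± 7.02 CPM in control cells; it is uncertain, since an opposite-strand gene shares 33% of its exon bases. Mdm4, the relative of Mdm2 that binds p53 without degrading it, had log2 fold changes of -0.22 ± 0.07 SE in Atf4 cells and -0.23 ± 0.07 SE in Atf3 cells. Btg1, an antiproliferative relative of Btg2, had -0.46 ± 0.06 SE in Atf4 cells and -0.58 ± 0.06 SE in Atf3 cells, in the direction of Btg2. The mitotic kinase gene Plk1 had 0.61 ± 0.07 SE in Atf4 cells and 0.54 ± 0.07 SE in Atf3 cells, and Plk4, the kinase of centriole duplication, had 1.02 ± 0.07 SE in Atf4 cells and 1.04 ± 0.07 SE in Atf3 cells. Trp53inp2 had -0.13 ± 0.03 SE in Atf4 cells and -0.33 ± 0.03 SE in Atf3 cells, in the direction of Trp53inp1. Opposite-strand genes share 8.04% of the exon bases of Rrm2b, 7.09% of those of Plk1, 6.09% of those of Bcl2 and 3.34% of those of Tigar.

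The pattern of Trp53 over the 15 libraries was compared with that of 9922 genes by the root mean square distance of centred log2 CPM, so that a small distance means a like shape. The nearest were Tnfaip1, an adaptor of a ubiquitin ligase (0.0374), Lnx2, an adaptor with PDZ domains (0.0397), Med10, a subunit of the Mediator complex (0.0489), Rrp7a, a ribosome biogenesis factor (0.0517), and Rab5if (0.0519 log2 units). Tnfaip1 had 87.5 ± 4.96 CPM in Atf4 cells, 119 ± 6.13 CPM in Atf3 cells and 73.9 ± 1.11 CPM in control cells. Lnx2 had 14.5 ± 0.770 CPM in Atf4 cells, 18.9 ± 1.40 CPM in Atf3 cells and 11.8 ± 0.260 CPM in control cells. The others had the same order of lines, with means of 47.8 to 82.8 CPM in Atf4 cells, 67.1 to 107 CPM in Atf3 cells and 39.3 to 65.9 CPM in control cells.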

How the data were processed

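The values the authors deposited are raw gene counts in whole numbers, without normalization, over 55416 Ensembl identifiers and 15 libraries with paired reads of 150 bases. The kit, NEBNext Ultra RNA per the labels' protocols, leaves strand unmarked. The submitters' processing notes name STAR, edgeR and mm10. Which versions, counter, strand setting and annotation were used is not given in the sources used here. Libraries were matched to lines by their titles, and 0 columns remained unmatched. GENCODE M21 on GRCm38 gave symbols, exon lengths and coordinates, and 52135 identifiers received a symbol. Promoters come from RefSeq on GRCm38.p6.

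Counts were fitted over all 15 libraries with a coefficient per line (R 4.3.3, edgeR 4.0.16: TMM scaling, filterByExpr, quasi-likelihood test, two-sided, Benjamini-Hochberg adjustment over 18244 genes, adjusted p under 0.05). Levels are CPM on TMM-scaled totals, with scaling factors of 1.007 to 1.024 in Atf4 cells, 0.939 to 0.954 in Atf3 cells and 1.031 to 1.046 in control cells. The lowest count of any of the 10 genes in a library was 2108. SE is the size of the log2 fold change over the square root of F, and is approximate. Libraries of 1 line differed from each other by more than sampling noise (chi-square over degrees of freedom 5.47 to 53.4, for genes of 20 counts or more), so none was merged as a repeat deposit; whether they are separate cultures is not shown by this. The labels give no batch or date. Alternatives were DESeq2 1.42.0, limma-voom (limma 3.58.1), other scalings and filters, fewer libraries, and the replicate number as a block.

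The 10 genes, the other lists and the tests were chosen with earlier results of these data known. Beside the 10 genes and Cdkn1a, the text names, per list and comparison, at most 2 called genes in each direction with the smallest adjusted p, any gene of the BCL-2 list or of the relatives, and the 5 genes nearest Trp53 in pattern. It also names Atf3, Atf4, Fos, Egr1, Kdr, Tek, Cdh5, Cldn5, Map2, Tubb3, Dcx, Fabp7, Vim and Hes1 as checks.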

Additional observations from a re-analysis of the deposited data

Results flagged for a closer look

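Dixon's test for a library far from the other 4 of its line was run on the 10 genes and on the other genes whose levels are printed, in 99 groups of 5 libraries. It picked 7 of them; chance picks about 1 in 20, or 5%. Of the 30 groups of the 10 genes 4 were picked. Ccng1 was lowest in Atf4 replicate 5 at 450.7 CPM, with the next library at 484 CPM, and in control replicate 4 at 359.7 CPM, with the next at 369.5 CPM. Plk2 was highest in Atf4 replicate 5 at 121.9 CPM, with the next library at 98.2 CPM. Phlda3 was highest in control replicate 5 at 91.13 CPM, with the next at 79.5 CPM. Mcl1 was highest in Atf4 replicate 5 at 154.0 CPM, with the next at 136 CPM. Mybl2 was lowest in Atf3 replicate 2 at 36.26 CPM, with the next at 41.0 CPM. Med10 was highest in control replicate 5 at 71.03 CPM, with the next at 64.9 CPM. Atf4 replicate 5 thus appears in 3 of the 7 and is also the library of its line with the most Atf4 mRNA. Over all genes of 20 counts or more it also differed widely from replicates 1 to 3 of its line.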

How the results depend on the processing

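Each log2 fold change of the 10 genes kept its direction and its side of the threshold in every alternative for 10 of 10 genes in Atf3 cells and 9 of 10 in Atf4 cells against control cells (the exception was Plk2, called with plain totals at -0.21 and without the libraries named in the report), and for 5 of 10 in Atf4 cells against Atf3 cells, where Btg2, Ccng1, Trp53inp1, Bbc3 and Phlda3 were the exceptions. Asking for at least 1.5-fold left 2 of the 10 genes higher and 1 lower, and 12 other pathway genes higher and 0 lower, in Atf4 cells against control cells (edgeR; 6, 2, 34 and 11 without that demand). It left 5 of the 10 higher and 1 lower, and 19 others higher and 6 lower, in Atf3 cells, and 0 of the 10 higher and 1 lower, and 1 other higher and 3 lower, in Atf4 cells against Atf3 cells. The share of all genes called at 1.5-fold was not counted. These counts therefore show how many calls are small, and are no result about the p53 genes as a group.

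Plain library totals moved the median log2 fold change of all genes to -0.155 for Atf3 cells against control cells and to 0.108 for Atf4 cells against Atf3 cells. The share of higher among all calls was then 38.4%, against 50.3% with TMM, for Atf3 against control cells, and 72.3%, against 45.2%, for Atf4 against Atf3 cells. Other pathway genes then gave 19 lower in Atf3 cells against control cells. In Atf4 cells against Atf3 cells 3 of the 10 were higher, and 20 others were higher and 9 lower. Ccng1 turned to 0.073 (edgeR adjusted p = 0.088; 0.088 to 0.98 over all alternatives). A filter at 1 CPM gave 2 of the 10 higher in that comparison. Leaving out a library gave 0 to 3 of the 10 and 6 to 10 others higher there. The cause was not tested.

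Replicate numbers did not pair the libraries: correlations of same-numbered libraries ran from -0.191 to 0.195, 2 of 15 pairs were over 0.1, and 1 library matched its own number best. The replicate block left 1 of the 10 higher and 5 lower in Atf4 cells against Atf3 cells, with Phlda3 at -0.15 (edgeR adjusted p = 0.054), and left the other calls of the 10 genes as they were.

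With at least 2108 counts for each of the 10 genes in each library, the spread between libraries and not counting error limits these comparisons. The labels name 1 line per construct, and no protein was measured.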
